A study of Homo sapiens with 8 samples.

Results

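Transcripts of 10 genes that cells use to respond to low oxygen or to break down glucose were followed in mesenchymal and epithelial cells of the human mammary line HMLE. The 10 genes were chosen by symbol from the names in the authors' table, in which CA9 is named only through the authors' own calls: 4 hypoxia genes (NDRG1, CA9, ADM and BNIP3) and 6 glycolytic enzymes (HK2, PFKP, ALDOA, PGK1, ENO1 and LDHA). They were found under 13 probe sets among 54613 tested, and 8927 genes had a name in all. Among named probe sets, PGK1 had 3, BNIP3 had 2 and the other 8 genes had 1 each. Past position 14644 of the array's 54675 probe sets, only those the authors had called carry a name. Further probe sets of these genes may therefore be unnamed and were not seen. A gene with several named probe sets is represented by the brightest of them.

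HMLE cells are immortalized human mammary epithelial cells. The groups were 3 mesenchymal subpopulations, MSP1, MSP2 and MSP3, and the CD24hi cells, an epithelial subpopulation sorted positively for the surface protein CD24. Each group had 2 Affymetrix arrays, a and b, of biotin-labelled total RNA, 8 in all. All cells were grown in MEGM, a mammary epithelial medium, under what the labels call standard conditions. The labels name no hypoxia treatment, and they give neither the oxygen level nor how the MSP cells were isolated. Whether the arrays of a group stem from different cultures is also unsaid, and the p-values therefore reflect array-to-array spread that may be purely technical.

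Cells short of oxygen stabilise the alpha subunits of hypoxia-inducible factor (HIF), which otherwise are hydroxylated and degraded through the VHL protein. HIF then binds DNA at hypoxia response elements, whose core reads ACGTG or GCGTG, and raises transcription of genes for glucose uptake, glycolysis, pH control and blood vessel growth. Glycolysis turns glucose into pyruvate, which lactate dehydrogenase converts to lactate, and many proliferating cells run this pathway with oxygen present.

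The windows below carry the core ACGTG (searched on both strands, the reverse strand reading CACGT) in genes of both kinds: CA9, the gene called below that has a window, HK2, the first enzyme of glycolysis, and PGK1 and LDHA, which act late in it. They run from 250 bases before to 50 after the RefSeq start on GRCh38.p14, 300 bases, all on the plus strand. Capitals mark each match, and the palindrome CACGTG, where both strands overlap, counts as 1 site.
CA9, chr9:35673678-35673977: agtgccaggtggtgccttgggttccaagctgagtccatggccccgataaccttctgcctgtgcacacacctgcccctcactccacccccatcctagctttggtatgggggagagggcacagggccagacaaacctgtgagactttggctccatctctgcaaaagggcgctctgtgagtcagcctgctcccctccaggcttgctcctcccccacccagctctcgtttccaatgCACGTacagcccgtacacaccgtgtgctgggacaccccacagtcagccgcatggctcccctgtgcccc
HK2, chr2:74834920-74835219: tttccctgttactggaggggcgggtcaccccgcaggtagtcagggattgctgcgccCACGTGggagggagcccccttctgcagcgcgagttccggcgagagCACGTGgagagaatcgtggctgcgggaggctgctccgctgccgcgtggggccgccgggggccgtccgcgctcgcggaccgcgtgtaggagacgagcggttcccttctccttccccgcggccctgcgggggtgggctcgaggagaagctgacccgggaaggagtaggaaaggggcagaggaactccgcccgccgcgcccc
PGK1, chrX:78103998-78104297: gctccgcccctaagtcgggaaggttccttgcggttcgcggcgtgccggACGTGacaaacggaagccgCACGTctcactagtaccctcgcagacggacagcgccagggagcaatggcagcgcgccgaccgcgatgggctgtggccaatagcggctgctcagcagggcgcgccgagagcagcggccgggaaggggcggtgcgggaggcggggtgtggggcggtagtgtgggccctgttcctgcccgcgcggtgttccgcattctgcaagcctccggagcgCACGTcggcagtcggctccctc
LDHA, chr11:18394313-18394612: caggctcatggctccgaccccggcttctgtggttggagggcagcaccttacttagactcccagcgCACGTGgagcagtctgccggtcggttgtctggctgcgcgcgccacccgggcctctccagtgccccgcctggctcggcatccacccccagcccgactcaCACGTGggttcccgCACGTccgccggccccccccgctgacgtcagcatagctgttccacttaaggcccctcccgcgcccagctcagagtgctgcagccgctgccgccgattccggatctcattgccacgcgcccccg

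CA9 held 1 match, HK2 2, PGK1 3 and LDHA 3. RefSeq windows were matched for 9 of the 10 genes, 16 windows in all, some of them overlapping starts of 1 gene. ACGTG was present in 10 of those 16 windows (62.5%) and in 21.4% of all 35116 windows of this length. It was in no window of ENO1 or ADM, in 1 of the 4 windows of PFKP and in 1 of the 2 of LDHA. The other core, GCGTG, searched on both strands as well, was in 9 of the 16 windows (56.2%) and in 36.5% of all. The palindrome CACGTG was present in 4 of the 16, and in 7.26% of all windows. A match describes these letters and is no measure of HIF binding.

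Of the 10 genes, 2 fell in the mean of the 3 MSP groups relative to CD24hi cells, NDRG1 and CA9, none rose, and 8 did not pass (limma, Benjamini-Hochberg adjusted p under 0.05). Over all probe sets tested, 1.59% were called lower and 1.58% higher, 3.17% in all. Both called genes belong to the hypoxia group, but CA9 could be counted only because the authors had called it, so the count of 2 is no support for that group. The median log2 change was -1.66 over the 4 hypoxia genes and -0.11 over the 6 enzymes, against 0.02 over all probe sets. The median of the hypoxia genes depends on CA9 too, so it is no support for that group either. NDRG1, ADM and BNIP3 had -3.82, 1.25 and -0.39. Since whole cell populations were measured, fewer cells expressing a gene and less RNA per cell cannot be told apart.

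**Figure D1:**
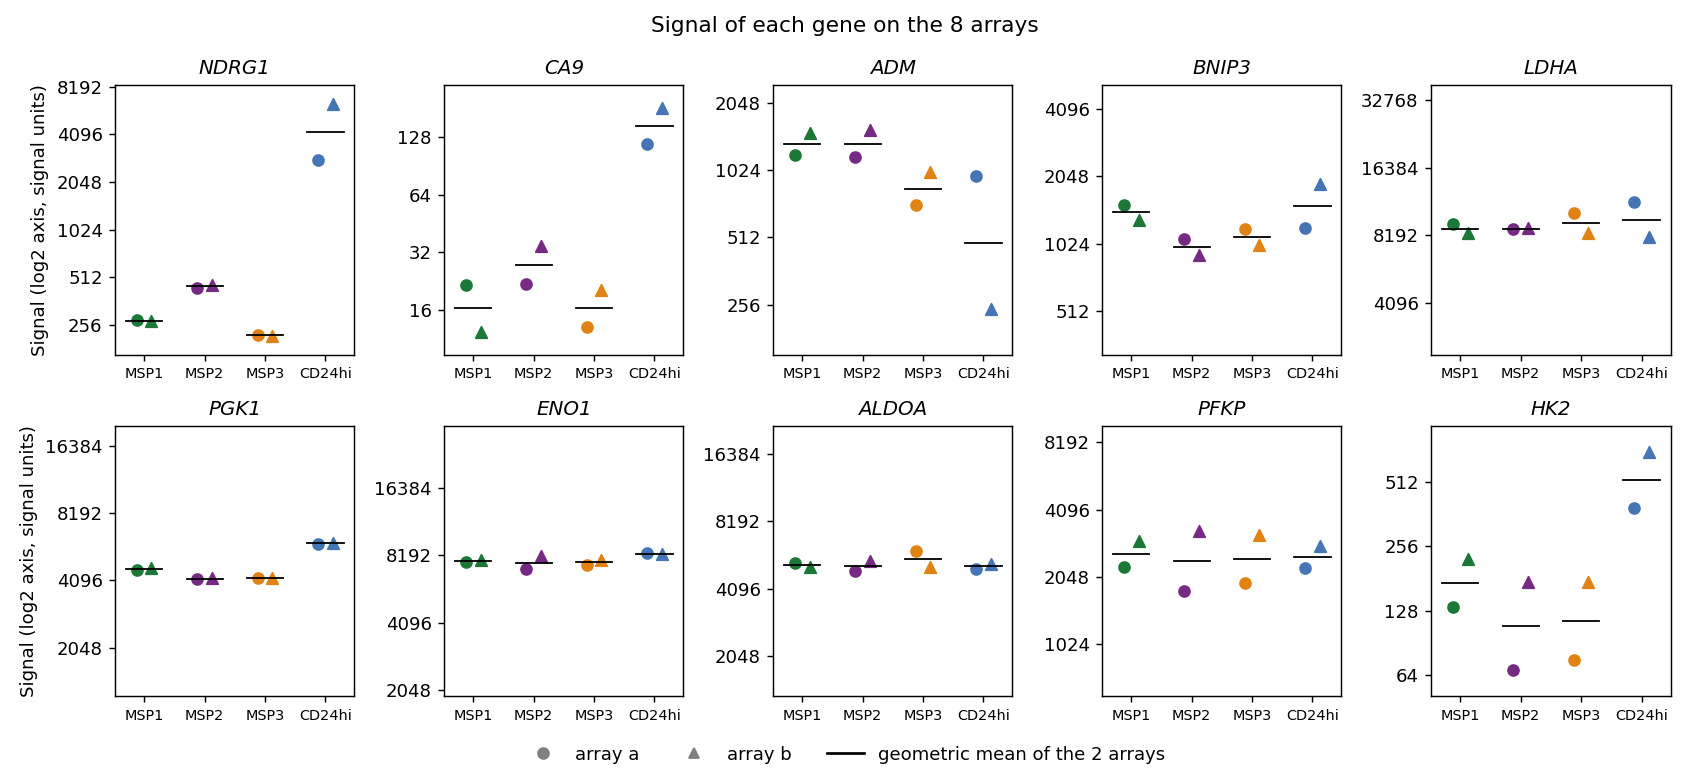
Signal of the 10 genes on each array (log2 axis, signal units; each panel has its own range), with the groups from left to right MSP1, MSP2, MSP3 and CD24hi, circles for array a, triangles for array b and a bar for the geometric mean of the 2 arrays. NDRG1, CA9 and HK2 sit lower on all 6 MSP arrays than on both CD24hi arrays, while LDHA, ALDOA and PFKP overlap.

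In 5 of the 10 genes (NDRG1, CA9, HK2, PGK1 and ENO1) every MSP array lay below both CD24hi arrays, and in the other 5 the arrays overlapped. The same order, MSP below, held for 9.92% of all probe sets tested and for 13.3% of the 23120 probe sets that averaged at least 32 signal units. CA9 could be counted only because the authors had called it, so the count with MSP below is no support for the 10 genes as a set. No gene of the 10 had every MSP array above, against 11.2% of all probe sets and 18.9% of the brighter ones.

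NDRG1 (200632_s_at), which encodes a stress-responsive protein induced by hypoxia and differentiation, had the largest difference of the 10. Its signals were 273.6 and 272.3 in MSP1, 440.3 and 456.6 in MSP2, and 222.2 and 219.7 in MSP3, against 2836.8 and 6355.4 in CD24hi cells. All 6 MSP arrays were far below both CD24hi arrays, the paired MSP arrays were nearly equal, and the CD24hi arrays were spread widely. The mean log2 change of the MSP groups was -3.82 ± 0.37 (SE of the fit, 2 arrays per group), 14.1-fold lower than in CD24hi, with an adjusted p of 0.0068 in limma. The call held in all 8 fits that left out 1 array, in which a group left with 1 array is assumed to vary like the others; the change was -4.40 without CD24hi a and -3.24 without CD24hi b.

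NDRG1 fell in each MSP group taken alone. It was 15.6-fold lower in MSP1 (log2 change -3.96 ± 0.45, limma adjusted p = 0.0179), where 1.81% of all probe sets were called and 1.03% were lower. It was 9.47-fold lower in MSP2 (-3.24 ± 0.45, adjusted p = 0.0324), where 1.56% were called and 0.811% were lower. It was 19.2-fold lower in MSP3 (-4.26 ± 0.45, adjusted p = 0.0161), where 1.57% were called and 0.787% were lower. These 3 comparisons share the CD24hi arrays. With 1 array left out the call was kept in 2 of 8 fits for MSP1 (without CD24hi a or CD24hi b). The MSP1 call was lost without an MSP2 or MSP3 array. Such a fit cannot move the log2 change of NDRG1 in MSP1, so its value of -3.96 there is no sign of stability. For MSP2 the call was kept in 1 of 8 fits (without CD24hi a). For MSP3 it was kept in 6 of 8 and lost without MSP3 a or MSP3 b. A fit without an array of the MSP group compared called 0 of the 54613 probe sets, so a loss there carries no information on NDRG1. Over these fits its log2 change ran from -4.54 to -3.38 in MSP1, from -3.83 to -2.66 in MSP2 and from -4.85 to -3.68 in MSP3. In the authors' deposited table the log2 change of NDRG1 was -3.77 for MSP1 (p-value 0.0016), -3.21 for MSP2 (0.0034) and -4.15 for MSP3 (0.0011), and whether these p-values are adjusted is not stated.

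CA9 (205199_at) encodes carbonic anhydrase IX, a cell-surface enzyme that regulates pH and is a widely used marker of HIF activity. Its signals were 21.7 and 12.3 in MSP1, 21.8 and 34.3 in MSP2, and 12.9 and 20.4 in MSP3, against 117.9 and 182.0 in CD24hi cells. On 5 of the 6 MSP arrays it was under 32 signal units, the limit used here for a dim probe set, and both CD24hi arrays stood above every MSP array. CA9 was at least 4.58-fold lower in the MSP mean (the CD24hi level of 146.5 over the limit of 32), with a fitted log2 change of -2.92 ± 0.41 and a limma adjusted p of 0.0215.

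Against CD24hi cells CA9 was called in MSP1 (log2 change -3.17 ± 0.50, limma adjusted p = 0.0439) and in MSP3 (-3.17 ± 0.50, adjusted p = 0.0449). In MSP2 it was -2.42 ± 0.50 and did not pass (adjusted p = 0.0963). The CA9 call in the MSP mean was kept in 3 of 8 fits with 1 array left out and lost without MSP1 b, MSP2 a, MSP3 a, CD24hi a or CD24hi b (highest adjusted p 0.103), and under array weights (0.0833). Its log2 change over these fits ran from -3.23 to -2.61. In MSP1 and MSP3 the call was kept in 0 of 8 such fits. Of these, the 2 without an array of that MSP group made no call for any probe set. Over the 8 fits the log2 change of CA9 ran from -3.58 to -2.76 in MSP1 and from -3.50 to -2.84 in MSP3. CA9 carries its name in the deposited table only through the authors' own calls, so that it was there to be measured depended on a difference.

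ADM (202912_at) encodes adrenomedullin, a secreted peptide that widens blood vessels and is induced by hypoxia. Its signals were 1195.5 and 1498.2 in MSP1, 1167.3 and 1542.9 in MSP2, and 713.7 and 1001.4 in MSP3, against 961.7 and 244.0 in CD24hi cells. The groups overlapped, and the CD24hi arrays were 3.94-fold apart. The mean log2 change was 1.25 ± 0.55 (95% interval -0.10 to 2.59, limma adjusted p = 0.339), and it was 0.26 without CD24hi b and 2.24 without CD24hi a.

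BNIP3 (201849_at) encodes a mitochondrial protein that promotes removal of mitochondria by autophagy. Its signals were 1528.4 and 1310.9 in MSP1, 1077.5 and 908.9 in MSP2, and 1194.6 and 1009.5 in MSP3, against 1210.7 and 1894.8 in CD24hi cells. The ranges overlapped, and array b was below array a in each MSP group but above it in CD24hi cells. The mean log2 change was -0.39 ± 0.30 (95% interval -1.14 to 0.35, limma adjusted p = 0.598), and its second probe set gave -0.41.

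The 6 enzymes gave no call in any comparison of an MSP group, or of their mean, with CD24hi cells. Of these, HK2 had a log2 change of -2.02, and the other 5 were within 0.47 of 0 on the log2 scale in the MSP mean.

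HK2 (202934_at) encodes hexokinase II, which phosphorylates glucose and so traps it in the cell. Its signals were 132.6 and 224.5 in MSP1, 67.6 and 175.2 in MSP2, and 75.7 and 173.5 in MSP3, against 386.0 and 706.2 in CD24hi cells. Every MSP array was below both CD24hi arrays, and array b was above array a in all 4 groups. The level was 4.04-fold lower in the MSP mean (log2 change -2.02 ± 0.56, 95% interval -3.39 to -0.65), and the limma adjusted p was 0.146. It passed when probe sets averaging under 32 were left out (adjusted p = 0.036) and with a variance trend and robust prior (adjusted p = 0.0398).

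PFKP (201037_at) encodes the platelet-type phosphofructokinase, which catalyses the committed step of glycolysis. Its signals were 2274.2 and 2969.9 in MSP1, 1775.0 and 3287.2 in MSP2, and 1930.9 and 3164.5 in MSP3, against 2244.1 and 2807.0 in CD24hi cells. Array b was above array a in every group, by more than the group means differed. The mean log2 change was -0.01 ± 0.38 (95% interval -0.94 to 0.92, limma adjusted p = 0.994), and its sign turned under quantile normalization.

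ALDOA (200966_x_at) encodes aldolase A, which splits the sugar into triose phosphates. Its signals were 5317.2 and 5112.3 in MSP1, 4924.2 and 5446.4 in MSP2, and 6038.5 and 5145.1 in MSP3, against 5040.1 and 5278.9 in CD24hi cells. The groups overlapped fully, with a mean log2 change of 0.04 ± 0.26 (95% interval -0.58 to 0.67, limma adjusted p = 0.956).

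PGK1 (200738_s_at) encodes phosphoglycerate kinase, which makes ATP in the pathway. Its signals were 4557.1 and 4668.8 in MSP1, 4139.5 and 4203.8 in MSP2, and 4193.0 and 4200.7 in MSP3, against 5966.1 and 6046.5 in CD24hi cells. The arrays of a group nearly coincided and every MSP array was lower. The mean log2 change was -0.47 ± 0.25 (95% interval -1.08 to 0.13, limma adjusted p = 0.416), and it passed when signals under 32 were set to 32 (adjusted p = 0.0016). That floor touched none of its signals and left the log2 change at -0.47. The p moved only through other probe sets, which enter limma's variance estimate and the adjustment. A second probe set (200737_at) also had every MSP array below, with -0.52 ± 0.30 (adjusted p = 0.464), and the third was dim in both the MSP mean and CD24hi.

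ENO1 (201231_s_at) encodes enolase, which acts just before pyruvate kinase. Its signals were 7677 and 7858.6 in MSP1, 7140 and 8121.2 in MSP2, and 7465.2 and 7806 in MSP3, against 8389.2 and 8311 in CD24hi cells. The MSP arrays were all lower by a small margin, and the mean log2 change of -0.12 ± 0.25 did not pass (95% interval -0.73 to 0.49, limma adjusted p = 0.861).

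LDHA (200650_s_at) encodes lactate dehydrogenase A, which makes lactate from pyruvate. Its signals were 9170.9 and 8378 in MSP1, 8732.3 and 8779.6 in MSP2, and 10303.8 and 8361.9 in MSP3, against 11467.4 and 8034.8 in CD24hi cells. All 6 MSP arrays lay between the CD24hi arrays. The mean log2 change was -0.10 ± 0.28 (95% interval -0.80 to 0.59, limma adjusted p = 0.902).

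**Figure D2:**
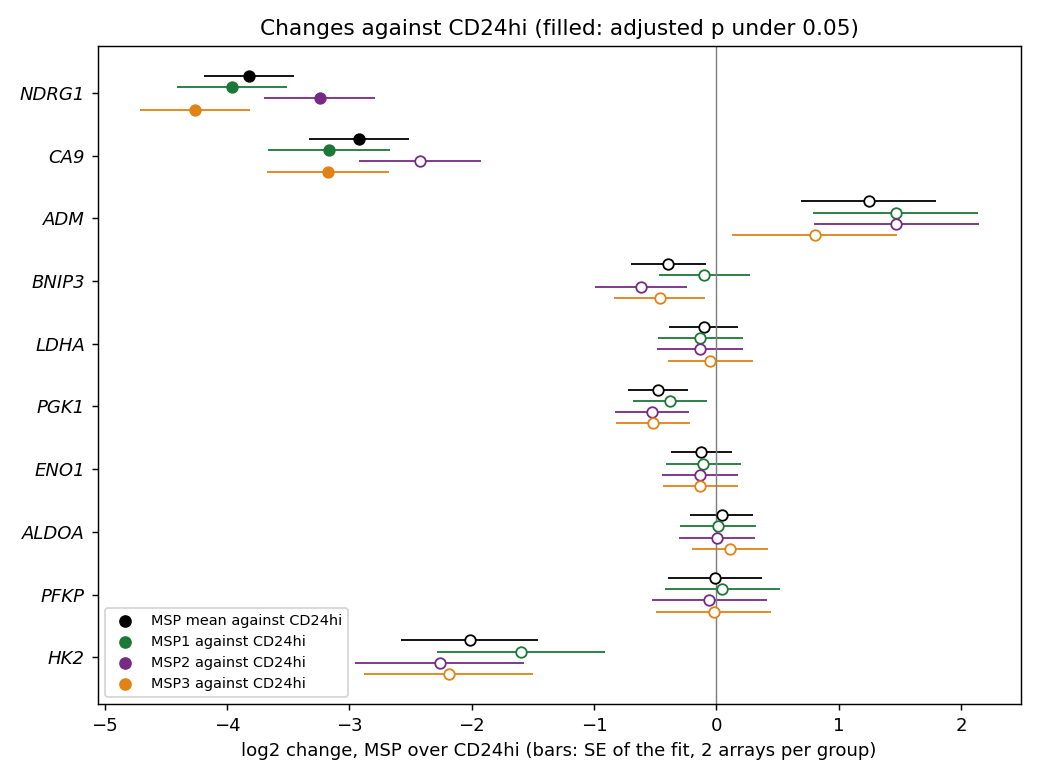
Log2 change of the 10 genes in the MSP mean and in MSP1, MSP2 and MSP3, each over CD24hi (points; bars are the SE of the fit, filled points have an adjusted p under 0.05). NDRG1 is filled in all 4 comparisons, CA9 in 3 of them, and the enzymes in none.

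The CD24hi arrays differed from each other more than the arrays of any MSP group. Among 14072 bright probe sets, 24.3% were over 2-fold apart between the CD24hi arrays, against 1.88% for the MSP1 arrays, 5.47% for MSP2 and 6.42% for MSP3. The ratio of 3' to 5' signal of GAPDH, an index of RNA integrity, was 0.919 to 1.002 on the MSP arrays, against 1.154 on CD24hi a and 0.909 on CD24hi b. For ACTB it was 1.132 to 1.251 on the MSP arrays, against 1.468 on CD24hi a and 1.099 on CD24hi b. The part of RNA quality in the results was not tested.

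**Figure D3:**
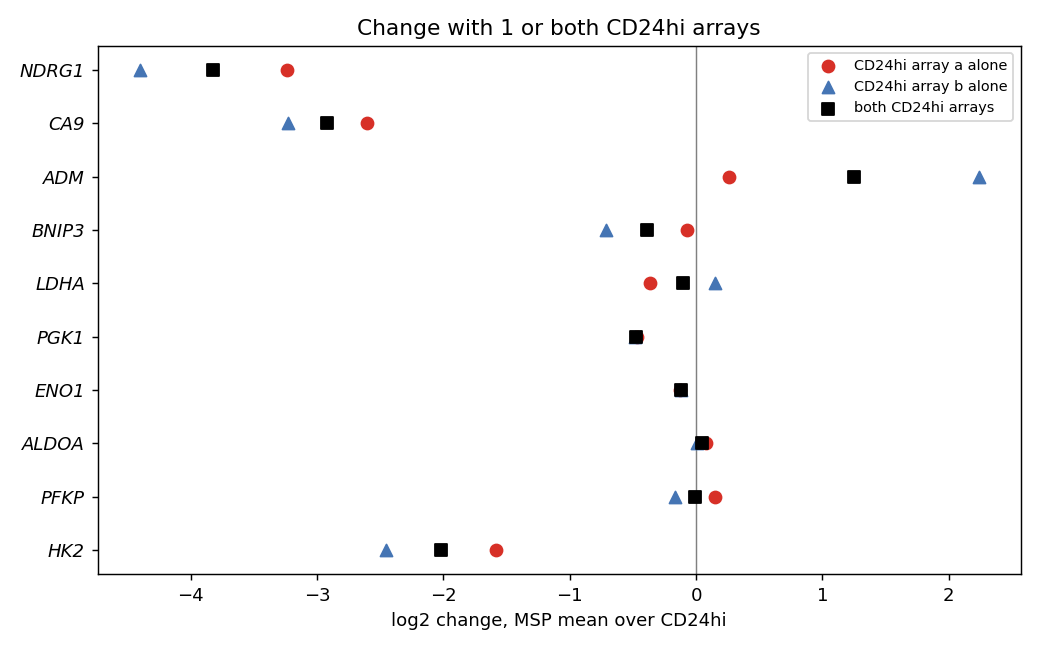
Log2 change of the MSP mean over CD24hi for the 10 genes, with both CD24hi arrays (squares), CD24hi a alone (circles) or CD24hi b alone (triangles). The points of ADM and NDRG1 are the farthest apart, at 0.26 and 2.24 and at -3.24 and -4.40, and those of PGK1 and ENO1 nearly coincide.

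Between MSP groups, none of the 10 genes was called in any of the 3 pairs, where 0% of all probe sets were called and 4.78%, 4.27% and 4.52% had an unadjusted p under 0.05 in limma. None of the 10 reached an unadjusted p under 0.05 in the fit of all 8 arrays. NDRG1 ranked MSP2, MSP1 and MSP3 from high to low, at 448.4, 272.9 and 221.0. Its log2 change was 0.72 in MSP2 over MSP1, -0.30 in MSP3 over MSP1 and -1.02 in MSP3 over MSP2. In a fit of the 6 MSP arrays alone, chosen after seeing the data, MSP3 over MSP2 had an unadjusted p of 0.0106 and an adjusted p of 0.616 in limma. MSP2 over MSP1 had an unadjusted p of 0.037 (adjusted 0.807) and MSP3 over MSP1 one of 0.277 (adjusted above 0.99) in the same limma fit. The enzymes other than HK2 differed by at most 0.15 between any pair of MSP groups.

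Other genes of the pathways were read from lists, of which only some genes had a name in the files. Of 19 other glycolytic enzymes and isozymes, 11 were measured and none was called, with a median log2 change of -0.17. Of 19 genes for glucose and lactate transport and pyruvate control, 10 were measured and none was called (median -0.43). Among these, HK1, the housekeeping hexokinase, had a log2 change of -0.65 ± 0.29 with every MSP array below (limma adjusted p = 0.336). LDHB, the other main lactate dehydrogenase subunit, had -0.17 ± 0.26 (adjusted p = 0.808), and MPC2, a subunit of the mitochondrial pyruvate carrier, had 0.41 ± 0.50 (adjusted p = 0.755), both with overlapping arrays. GAPDH, read from the array's 3' control probe set, had 8638.4 to 11641 on the MSP arrays, against 10932 and 8267.6 on the CD24hi arrays, and VEGFA was not analysed here. SLC2A1, the glucose transporter GLUT1, had 289.4 to 378.9 on the MSP arrays, against 976.7 on CD24hi a and 262.0 on CD24hi b. Its log2 change of -0.62 ± 0.52 did not pass (adjusted p = 0.623), and it was 0.33 without CD24hi a.

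Of 24 other hypoxia-induced genes, 12 were measured, 1 rose, 1 fell and 10 did not pass (median 0.34). STC2, the secreted glycoprotein stanniocalcin 2, had 1383 and 1876 in MSP1, 755 and 1350 in MSP2, and 791 and 1761 in MSP3, against 84.5 and 96.8 in CD24hi cells. Every MSP array was above both CD24hi arrays, and STC2 was 13.7-fold higher (log2 change 3.78 ± 0.43, limma adjusted p = 0.0114). That call was lost without CD24hi a or CD24hi b, with a highest adjusted p of 0.0678.

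CA12, carbonic anhydrase XII, had 251 and 388 in MSP1, 447 and 569 in MSP2, and 377 and 487 in MSP3, against 4684 and 1790 in CD24hi cells. Every MSP array was below, and CA12 was 7.11-fold lower (log2 change -2.83 ± 0.45, limma adjusted p = 0.0315). The call was kept in 1 of 8 fits with 1 array left out, the one without CD24hi b, where the change was -3.52. Without CD24hi a it was -2.14, and the call was also lost with signals under 32 set to 32 (adjusted p = 0.0925) and under array weights (0.0793). Both genes lie in the part of the deposited table that lists the authors' own calls.

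Of 10 genes for HIF subunits and oxygen sensing, 6 were measured and none was called (median 0.24). HIF1A, the oxygen-regulated alpha subunit, had 4978 to 6044 on the MSP arrays, against 4551 and 3727 in CD24hi cells. Every MSP array was above, and the log2 change of 0.46 ± 0.26 did not pass (limma adjusted p = 0.452). HIF is regulated mainly at the level of its protein, which arrays do not measure. Of 13 genes of the pentose phosphate pathway and gluconeogenesis, 6 were measured and none was called (median 0.26); the brightest, TALDO1 (transaldolase), had a log2 change of 0.31 ± 0.27 (adjusted p = 0.645).

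**Figure D4:**
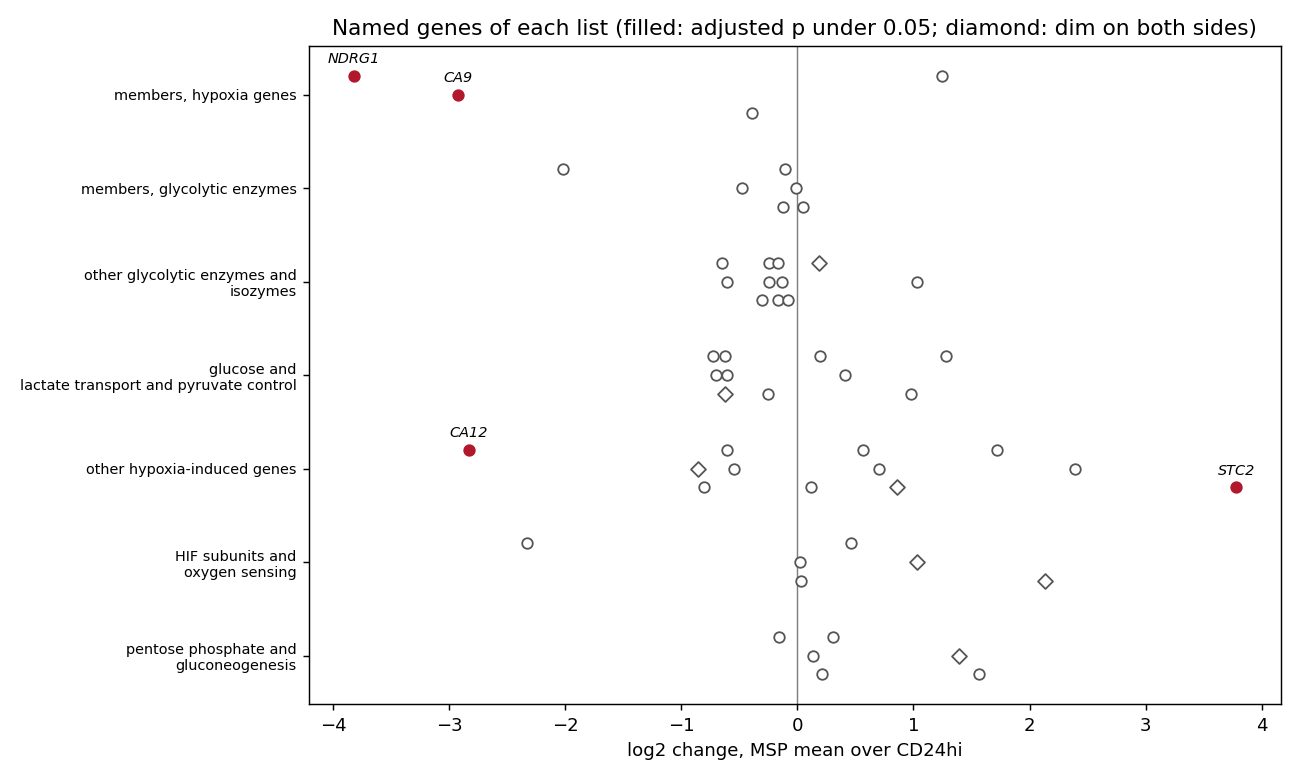
Log2 change of the MSP mean over CD24hi for every named gene of each list (rows; 1 point per gene, filled where the adjusted p was under 0.05, diamonds where both levels were under 32). Filled points are NDRG1, CA9 and CA12 on the lower side and STC2 on the higher side.

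The labels were set beside marker genes. Of 6 epithelial markers 5 fell in the MSP mean, with summed signals of 2498 to 5374 on the MSP arrays, against 26262 to 40699 on the CD24hi arrays. Of 6 mesenchymal markers 4 rose, with sums of 28976 to 41717, against 6176 to 8260. All 6 epithelial and 5 of the 6 mesenchymal markers lie in the part of the deposited table that lists the authors' own calls. CD24 was also the sorting marker, so these counts are no independent check of the labels. Summed blood markers were 18.2 to 58.0 on the MSP arrays, against 21.1 to 76.7 in CD24hi cells, and endothelial markers 64.1 to 96.6, against 55.5 on each CD24hi array. In each of these 2 sets, 2 of the 3 markers were under 32 signal units on every array. Each marker was read from a named probe set, so the low sums say little about blood or endothelial cells. Of 3 adipocyte markers 1 was named, with 1.86 to 75.1 on the MSP arrays, against 19.9 to 27.2 on the CD24hi arrays, and none of these markers was called.

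Candidates for a similar pattern were 4763 named genes outside the 10 that averaged at least 32 signal units. Among them, the genes whose 8 signals, centred on the log2 scale, ran closest to each of the 10 were found by root mean square difference. For NDRG1 they were ELMO3 (0.35) and VSNL1 (0.36), and for CA9 CNKSR1 and ADAM8 (both 0.34). For HK2 they were LYN (0.29) and CAPN15 (0.39), and for ADM EDNRA (0.25) and PCNX4 (0.27). For LDHA they were ZNF263 (0.05) and NPM1 (0.06), and for ENO1 EIF4A1 (0.03) and KHDRBS1 (0.04). ELMO3, CNKSR1 and ADAM8 were under 32 on every MSP array and reached that average only through the CD24hi arrays. They, VSNL1 and LYN lie in the part of the deposited table that lists the authors' own calls. The root mean square differences describe 8 arrays in 4 groups and carry no test.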

How the data were processed

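RNA of the 8 samples was measured on Affymetrix arrays. Per the submitters' processing notes, Affymetrix Expression Console and limma were used; no source used here gives the summarisation algorithm or a genome build. The values deposited by the authors are linear signal intensity per probe set, scaled to a trimmed mean of 150 on every array, and their table of comparisons holds log2 changes and p-values per the file headers. From the deposited intensity, values were put on the log2 scale without an offset; limma 3.58.1 (R 4.3.3) then fitted 4 group means over 8 arrays; two-sided p-values were adjusted by Benjamini-Hochberg over 54613 probe sets (62 controls left out). A fold against a level under 32 is a lower bound. Of the 16382 rows of the authors' table, which gave the gene names, the first 2256 list their own calls. The members and lists were chosen with earlier results of these data known. The rule for naming took all 10 members, GAPDH, HIF1A, SLC2A1, LDHB, HK1 and VEGFA, the called genes of the other lists (at most 3 each way) or, with none called, the brightest, and the 2 nearest genes of each member. The fit was tested on simulated data. Alternatives were another normalization, a floor, an offset, a filter, probe set averaging, a variance trend, array weights, the array letter as a block and leaving out each array. Only 2 arrays per group limit the precision.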

Additional observations from a re-analysis of the deposited data

How the results depend on the processing

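Values for single genes were counted under the alternatives other than leaving out 1 array. For NDRG1 between MSP groups these include the fits of the MSP arrays alone. Of these values, 438 kept their direction and side of the threshold, 13 passed newly, 11 no longer passed and 3 changed sign. The count of the 10 genes called in the MSP mean was 1 under array weights, and 3 with signals under 32 set to 32 (PGK1 added) and with a mean signal of at least 32, the variance trend or the replicate block (HK2 added in each). In MSP1 and MSP3 it was 3 with the floor (PGK1 added). In MSP1 it was 1 under array weights and 1 with the replicate block, and in MSP3 likewise 1 under each. In MSP2 it was 2 when signals under 32 were set to 32, with 16 added, with a mean signal of at least 32, when adjusted over named genes, with the mean of a gene's probe sets and with the variance trend, and 0 with the replicate block; with the floor of 32 the called genes were CA9 and PGK1, and NDRG1 did not pass (adjusted p = 0.0756). With 1 array left out the counts ranged from 1 to 2 in the MSP mean, from 0 to 1 in MSP1, MSP2 and MSP3, and were 0 in each pair of MSP groups. PFKP changed sign under quantile normalization, at 0.0525 in the MSP mean, 0.0128 in MSP2 and 0.0533 in MSP3. The causes were not tested.

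MSP arrays that share a letter moved together, since b minus a correlated at 0.696 to 0.835 between MSP groups (across probe sets). It correlated at -0.430 to -0.332 with CD24hi, so the letters were not taken as pairs over the 4 groups. With the replicate block HK2 passed (adjusted p = 0.0426) and CA12 did not (0.069). In the MSP arrays alone with the replicate block, NDRG1 had an unadjusted p of 0.00846 in MSP3 over MSP2 and 0.0239 in MSP2 over MSP1 (limma adjusted p 0.528 and 0.558).

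With 1 array left out, log2 changes of these uncalled genes spanned 0. In the MSP mean they ran from -0.36 to 0.15 for LDHA, -0.17 to 0.15 for PFKP, -1.57 to 0.33 for SLC2A1 and -0.24 to 1.05 for MPC2. In MSP1 they ran from -0.42 to 0.23 for BNIP3, -0.39 to 0.13 for LDHA, -0.0179 to 0.0489 for ALDOA and -0.14 to 0.24 for PFKP. In MSP2 they ran from -0.39 to 0.12 for LDHA, -0.067 to 0.0784 for ALDOA and -0.50 to 0.39 for PFKP. In MSP3 they ran from -0.19 to 1.79 for ADM, -0.31 to 0.21 for LDHA, -0.0037 to 0.23 for ALDOA and -0.38 to 0.33 for PFKP.

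Over all probe sets the MSP mean gave 861 higher and 870 lower calls. It gave 1886 and 1805 with 16 added, 1880 and 1299 of 23120 with a mean of at least 32, 1750 and 1408 with the variance trend, 569 and 658 with the floor, and 329 and 295 under array weights. Pairs of MSP groups gave 0 calls except with the floor: 3 higher and 2 lower in MSP2 over MSP1, 1 and 2 in MSP3 over MSP1, and 1 and 3 in MSP3 over MSP2, none of them among the 10 genes.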

Other observations

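Some genes of the lists that did not pass had wide separations; they were singled out after their values were seen. EPAS1, which encodes the HIF2A alpha subunit, had 260.1 and 124.8 in MSP1, 264.5 and 102.6 in MSP2, and 469.4 and 173.7 in MSP3, against 950.2 and 1103 in CD24hi cells. Every MSP array was lower, by a log2 change of -2.33 ± 0.58 (limma adjusted p = 0.114). LOX, a collagen crosslinking enzyme induced by hypoxia, had a log2 change of 2.39 ± 0.45 (limma adjusted p = 0.0542). LOX lies in the part of the deposited table that lists the authors' own calls.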
